A study of Mus musculus with 29 samples.

Results

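The Bcl2 family decides whether mitochondria release the proteins that start apoptosis, and its transcripts were followed here through 10 of its genes. The 10 are the rows of the raw count table that carry the symbols Bcl2, Bcl2l1, Bcl2l2, Bcl2l10, Bcl2l11, Mcl1, Bak1, Bid, Bbc3 and Bok, out of 24448 gene rows, and all 10 were found. The libraries fell into 3 groups: 8 hydroxyurea (HU) embryos, 12 cumulus cells and 9 control embryos. HU and control embryos were single mouse embryos of the BDF1 strain in which an enucleated oocyte had received a cumulus cell nucleus (cumulus cells are the somatic cells around the oocyte). Both kinds were activated for 6 h with 10 mM strontium in the presence of CB and EGTA. HU embryos then had 10 uM HU in the medium, which was exchanged for drug-free medium after 24 h, whereas control embryos had none. Embryos were collected at the 2-cell stage, 28 h after activation. The cumulus cells were single cells of the same strain and of the donor cell type, hand-picked like the embryos. HU inhibits ribonucleotide reductase, which supplies the nucleotides for DNA replication. The labels tie no embryo or cell to a day or a female, so the p-values below cover embryo-to-embryo spread, which may be technical, and the 12 cells count as 1 sample.

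Members of the family share short stretches of sequence called BH domains and act in 3 roles. Prosurvival proteins bind and restrain the others, effectors open pores in the outer mitochondrial membrane, and BH3-only proteins carry stress signals by engaging the prosurvival proteins or the effectors. In the oocyte and the cleaving embryo the transcripts are in large part stored by the mother and are used and replaced around the 2-cell stage. Listed here as prosurvival were Bcl2, Bcl2l1, Bcl2l2, Bcl2l10 and Mcl1, as effectors Bak1 and Bok, and as BH3-only members Bcl2l11, Bid and Bbc3. What each protein does in these embryos was not tested.

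Gene counts summed to between 2442541 and 3757492 per HU embryo, between 317195 and 4051494 per cumulus cell and between 1801261 and 3472116 per control embryo. Of the 10 members, 9 or 10 had a count in every HU and every control embryo, against 2 to 9 in a cumulus cell. The summed oocyte markers and the summed cumulus markers went with the labels of the groups. Of 10 oocyte and early embryo markers, 3 had any count in the cells, where they summed to at most 3.56 CPM (counts scaled to the sum of all gene counts of the library), and Zp1, Zp2, Zp3, Gdf9, Ooep, Padi6 and Btg4 were at 0. The same markers summed to between 3046 and 6637 CPM in HU embryos and between 4291 and 7366 CPM in control embryos. The 12 cumulus and granulosa markers summed to between 151 and 4232 CPM in the cells, between 23.2 and 90.6 CPM in HU embryos and between 18.5 and 63.1 CPM in control embryos. Cyp11a1 was the highest of them, at 1808 CPM over the summed cells, with a count in 11 of 12. Amh had a count in 2 cells and Has2 in 1. Nr5a2 did not set the groups apart, at 27.7 CPM in the cells, 32.8 CPM in HU embryos and 21.0 CPM in control embryos. Immune markers summed to a median of 5.43 CPM in the cells, with a highest value of 161 CPM. Theca, stroma and endothelial markers summed to a median of 0.7977 CPM in the cells, 43.25 CPM in HU embryos and 44.18 CPM in control embryos. Of these, Pecam1 averaged 34.99 CPM in HU embryos and 37.14 CPM in control embryos. Of the cells, 3 were set aside in part of the results. Cell 2 had 86.6% of its gene counts on the ribosomal RNA locus Rn45s, and cell 5 had the lowest sum of cumulus markers. Cell 10 was the smallest library and had no count from a mitochondrially encoded gene. Results on the cells are given below with and without these 3. Cell 11 was kept, though it had the next highest share of Rn45s (71.2%) and the next lowest of mitochondrially encoded genes (1.26%).

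The promoter sequences of a pair of prosurvival members are shown because these genes lay on opposite sides in the comparison of HU with control embryos described further on. Neither gene was called in that comparison. Each sequence is the 250 bases before the RefSeq start of transcription on GRCm38, written 5′ to 3′ along the strand of the gene. Capitals mark the GC box, the letters GGGCGG searched on both strands, which appears as CCGCCC on the opposite strand. The Mcl1 stretch is chr3:95658471-95658720 on the plus strand and holds 1 match near its end. The Bcl2l1 stretch is chr2:152831729-152831978 on the minus strand, at the outermost of 3 listed starts, and holds none.
Mcl1: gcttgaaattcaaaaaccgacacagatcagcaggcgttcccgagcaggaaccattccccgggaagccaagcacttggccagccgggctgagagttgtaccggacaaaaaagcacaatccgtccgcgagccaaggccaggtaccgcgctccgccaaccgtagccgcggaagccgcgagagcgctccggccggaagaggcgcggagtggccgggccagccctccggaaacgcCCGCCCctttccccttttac
Bcl2l1: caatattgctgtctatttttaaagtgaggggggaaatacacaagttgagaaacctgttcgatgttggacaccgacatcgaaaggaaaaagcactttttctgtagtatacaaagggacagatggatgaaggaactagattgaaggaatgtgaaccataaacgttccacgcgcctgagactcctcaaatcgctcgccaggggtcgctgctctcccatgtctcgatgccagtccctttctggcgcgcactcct
Promoter windows were listed for 9 of the 10 members, all but Bcl2l10, and each window spans 250 bases before to 50 bases after a start. At least 1 window held a GC box for 7 of these 9 members, with Bcl2l1 and Bak1 as the 2 that had none. Counted by window, 10 of the members' 14 windows held the letters, against 35.7% of all 32851 windows of this length; windows of 1 gene can overlap. Bcl2l2 and Bcl2l11, which lay on the same side as Bcl2l1 in that comparison, had a GC box, as did Bok, Bid and Bbc3 on the side of Mcl1. The match is a description of the letters only, and a link to the comparison was not tested.

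The level of each member was compared per length of transcript, as FPKM (fragments per kilobase of transcript, scaled to library size), since only this scale allows one gene to be set against another. Bcl2l10, listed here among the prosurvival members and known for its abundance in oocytes, led in every embryo. Its FPKM averaged 836 ± 285 in HU embryos (SD, n = 8) and 1114 ± 305 in control embryos (SD, n = 9), which was 84.9% ± 5.43 and 88.1% ± 2.12 of the summed FPKM of the 10 members. Bcl2l1, which encodes the prosurvival protein Bcl-xL and a shorter form that promotes death, came next, with 69.6 ± 16.6 FPKM in HU embryos and 89.3 ± 21.4 FPKM in control embryos. Counts per gene do not separate its forms. The lowest Bcl2l10 value stood above the highest Bcl2l1 value in both groups of embryos.

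Below these came Bid, whose protein links death receptors to mitochondria after cleavage by a caspase, at 25.1 ± 13.7 FPKM in HU embryos and 22.8 ± 8.003 FPKM in control embryos. Bcl2l1 exceeded Bid in all 17 embryos. The next ranks were shared by Mcl1, Bok and Bcl2l11. Mcl1, a prosurvival protein with a short half-life, averaged 14.02 ± 6.65 FPKM in HU embryos and 7.41 ± 3.15 FPKM in control embryos. Bok, an effector that can act without the other effectors, averaged 12.6 ± 14.4 FPKM in HU embryos and 8.89 ± 5.01 FPKM in control embryos. Bcl2l11, which encodes the BH3-only protein Bim, averaged 11.7 ± 8.92 FPKM in HU embryos and 12.1 ± 5.18 FPKM in control embryos. The order of these 3 was Mcl1, Bok, Bcl2l11 by mean in HU embryos and Bcl2l11, Bok, Mcl1 in control embryos. All neighbouring ranges overlapped: Mcl1 exceeded Bok in 5 of 8 HU embryos, Bok exceeded Bcl2l11 in 2 of 8 HU embryos, and Bok exceeded Mcl1 in 6 of 9 control embryos.

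The remaining 4 members were low. Bbc3, the BH3-only gene for Puma and a target of Trp53, averaged 2.75 ± 2.08 FPKM in HU embryos and 1.73 ± 1.37 FPKM in control embryos. Bak1, an effector, stood at 1.41 ± 0.824 FPKM in HU embryos and 1.56 ± 1.14 FPKM in control embryos. Bcl2l2, which encodes the prosurvival protein Bcl-w, had 1.07 ± 0.690 FPKM in HU embryos and 1.31 ± 0.722 FPKM in control embryos. These 3 overlapped in range within each group. Bcl2, the founding prosurvival gene, was last: it had a count in 4 of 8 HU embryos and 5 of 9 control embryos, at most 16 counts in any of them. Its mean was 0.212 ± 0.261 FPKM in HU embryos and 0.182 ± 0.280 FPKM in control embryos.

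**Figure D1:**
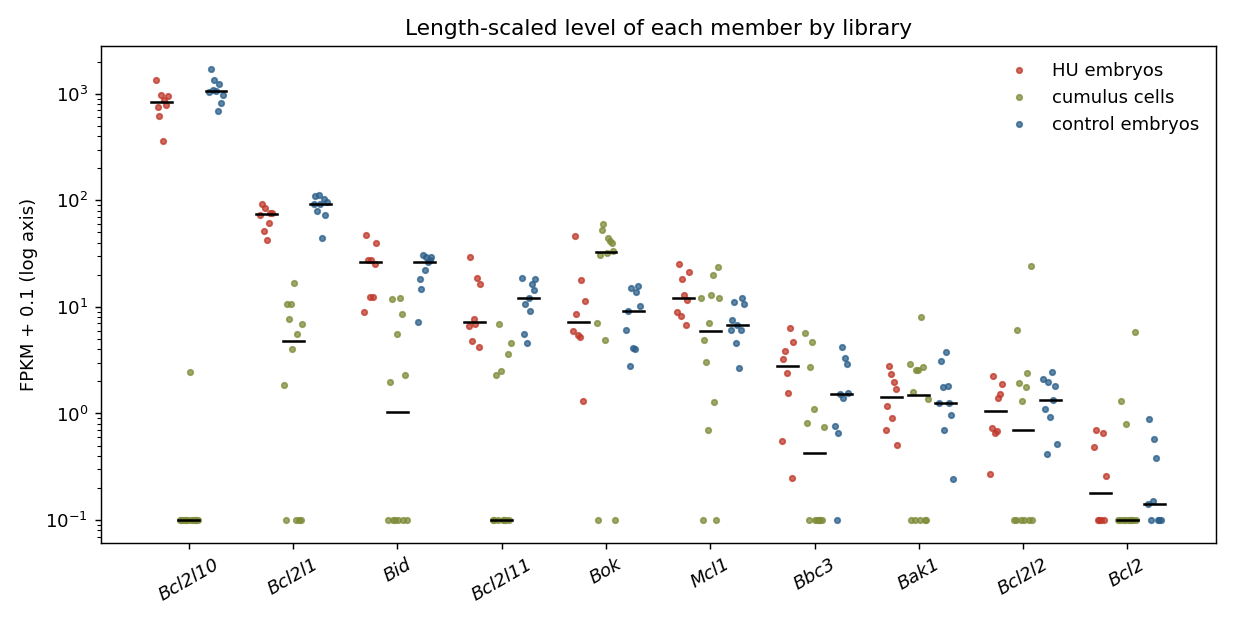
Level of each member in each library as FPKM + 0.1 on a log axis, for 8 HU embryos, 12 cumulus cells and 9 control embryos; a point is 1 library and a bar is the median. Points at the bottom are libraries without a count. Bcl2l10 leads in every embryo and had a count in 1 of 12 cells, whereas Bok has the highest median in the cells.

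Setting HU against control embryos asks whether the drug changed the transcripts of the reconstructed embryo. Of the 10 members, 8 passed the filter on low counts (Bcl2 and Bak1 did not), and 0 of these 8 were called at an adjusted p under 0.05 in the edgeR quasi-likelihood test; of all 11476 genes tested, 0.0% were called. At an unadjusted p under 0.05 there was 1 member of 8, against 5.85% of all genes tested (3.81% higher in HU and 2.04% lower). DESeq2 and limma-voom also called 0 members. The 2 groups of embryos overlapped for all 10 members, and failed to overlap for 0.0174% of all genes tested. Of the 8 log2 fold changes, HU over control, 4 were above 0 and 4 below, with a median of 0.038 over the members and 0.038 over all genes tested. Each library was a whole embryo, so fewer cells and less RNA per cell cannot be told apart.

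Mcl1 was the member at an unadjusted p under 0.05. Its TMM-scaled CPM (CPM after edgeR's trimmed-mean scaling) had a lowest value of 25.2, a median of 44.2 and a highest value of 85.1 in HU embryos, against 9.46, 22.1 and 44.8 in control embryos. All 8 HU embryos stood above the control median and 4 of them above the highest control, with the groups overlapping between 25.2 and 44.8 CPM. The means were 49.4 ± 22.2 CPM in HU embryos (SD, n = 8) and 26.04 ± 11.9 CPM in control embryos (SD, n = 9). The log2 fold change, HU over control, was 0.92 ± 0.32 (SE). Its unadjusted p in edgeR was 0.00795, rank 89 among the genes tested, and its adjusted p was 0.829, short of the threshold. A 2-sided exact permutation test of its log2(CPM + 1) over all splits of the embryos gave p = 0.0137, unadjusted for the 10 members so tested. Over the alternatives tried, the log2 fold change lay between 0.76 and 1.06 and the unadjusted p between 0.00384 and 0.197, the highest from a fit that included the cumulus cells.

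The most abundant of the members listed as prosurvival lay on the other side of 0. Bcl2l10 ranged from 420 to 1701 CPM with a median of 1114 in HU embryos and from 891 to 2076 CPM with a median of 1371 in control embryos, where 2 HU embryos stood below the lowest control and 1 above the control median. Its means were 1056 ± 382 CPM in HU embryos and 1365 ± 359 CPM in control embryos (log2 fold change -0.37 ± 0.22, SE; edgeR unadjusted p = 0.0990, adjusted p = 0.835). Bcl2l1 ranged from 128 to 289 CPM with a median of 234 in HU embryos and from 147 to 375.0 CPM with a median of 301 in control embryos. All 8 HU embryos stood below the control median, yet the ranges overlapped over most of their width. The log2 fold change was -0.32 ± 0.20 (SE), with a 95% interval from -0.71 to 0.062 and an edgeR adjusted p of 0.840. Without HU replicate 1 the unadjusted p of Bcl2l10 fell to 0.0239, and without control replicate 6 that of Bcl2l1 to 0.0339, while neither passed the adjusted threshold. The summed oocyte and early embryo markers had a median of 4251 CPM in HU embryos and 5252 CPM in control embryos. Much of that sum was Btg4, with a mean of 1593 CPM in HU embryos and 2217 CPM in control embryos, and Bmp15 (1201 and 1632 CPM). Dppa3, also abundant, was higher in HU embryos (1021 and 936 CPM). Of those 10 markers, 8 had a log2 fold change below 0 and 2 above, with a median of -0.099. Over the 11476 genes tested, 5320 were below 0 and the median was 0.038. The part of these markers in the values of Bcl2l10 and Bcl2l1 was not tested.

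Within single embryos, Mcl1 was 11% to 29.7% of Bcl2l1 by FPKM in HU embryos, with a median of 18.5%. In control embryos it was 3.99% to 16.4%, with a median of 6.78%. The groups overlapped only between 11% and 16.4%, and no further test was run on this ratio, which was formed after the values of both genes were seen. The ratio of Bcl2l1 to Bcl2l10 by FPKM was alike in both groups by median, 8.49% in HU embryos and 8.33% in control embryos.

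Bcl2l2, the least abundant prosurvival member tested, ranged from 0.620 to 7.20 CPM (median 3.49) in HU embryos and from 1.14 to 8.56 CPM (median 3.99) in control embryos. Its log2 fold change was -0.25 ± 0.53 (SE; edgeR adjusted p = 0.957) with a 95% interval from -1.29 to 0.79. Reads of Bcl2l2 may be shared with Gm20521, which overlaps it on the same strand.

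**Figure D2:**
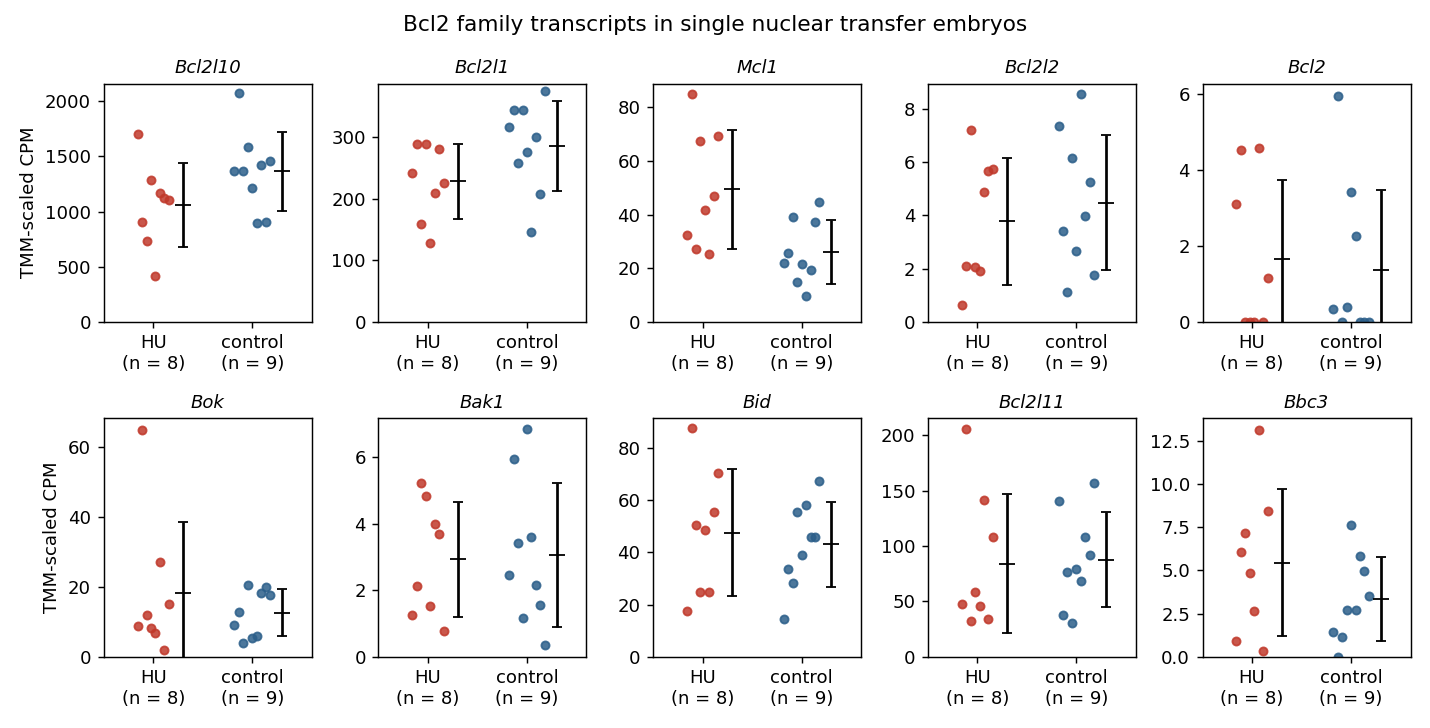
TMM-scaled CPM of the 10 members in single embryos, HU embryos (n = 8) left of control embryos (n = 9) in each panel. Points are embryos, and the bar beside them is the mean with its SD (lower ends under 0 are not drawn). Mcl1 is the panel in which all 8 HU embryos stand above the control median of 22.1 CPM, and 1 HU embryo stands apart in the Bok panel at 64.8 CPM.

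Among the effectors, Bok ranged from 2.01 to 64.8 CPM with a median of 10.2 in HU embryos and from 3.98 to 20.4 CPM with a median of 12.8 in control embryos. HU replicate 2 held the highest value and HU replicate 6, at 27.2 CPM, the second, and the other 6 HU embryos lay between 2.01 and 15.0 CPM. The log2 fold change of 0.52 ± 0.52 (SE; edgeR adjusted p = 0.898) rested on the first of these: without HU replicate 2 it was -0.14. Bak1 was below the filter. Its TMM-scaled CPM ranged from 0.767 to 5.24 in HU embryos, with a median of 2.90, and from 0.353 to 6.85 in control embryos, with a median of 2.46, on at most 18 counts per library.

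For the BH3-only members the differences between groups were smaller than the spread between embryos. Bcl2l11 ranged from 32.4 to 206 CPM (median 53.1) in HU embryos and from 30.4 to 157 CPM (median 79.2) in control embryos. Its log2 fold change of -0.061 ± 0.38 (SE; edgeR adjusted p = 0.988) changed sign under 8 of the alternatives. Bid ranged from 17.4 to 87.8 CPM (median 49.6) in HU embryos and from 14.4 to 67.4 CPM (median 45.9) in control embryos, with a log2 fold change of 0.14 ± 0.32 (SE; edgeR adjusted p = 0.961). Without HU replicate 2 it was -0.050. The Bid gene overlaps Bcl2l13 on the opposite strand, and since the Smart-seq2 libraries do not mark strand, reads of the overlap cannot be told apart. Bbc3 ranged from 0.335 to 13.2 CPM (median 5.45) in HU embryos and from 0 to 7.61 CPM (median 2.704) in control embryos, at 1 to 46 counts per HU embryo and at most 20 per control embryo. Its log2 fold change was 0.70 ± 0.66 (SE; edgeR adjusted p = 0.889), with a 95% interval from -0.59 to 1.99. HU replicate 2 held the highest HU value of Mcl1, Bok, Bcl2l11 and Bid.

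**Figure D3:**
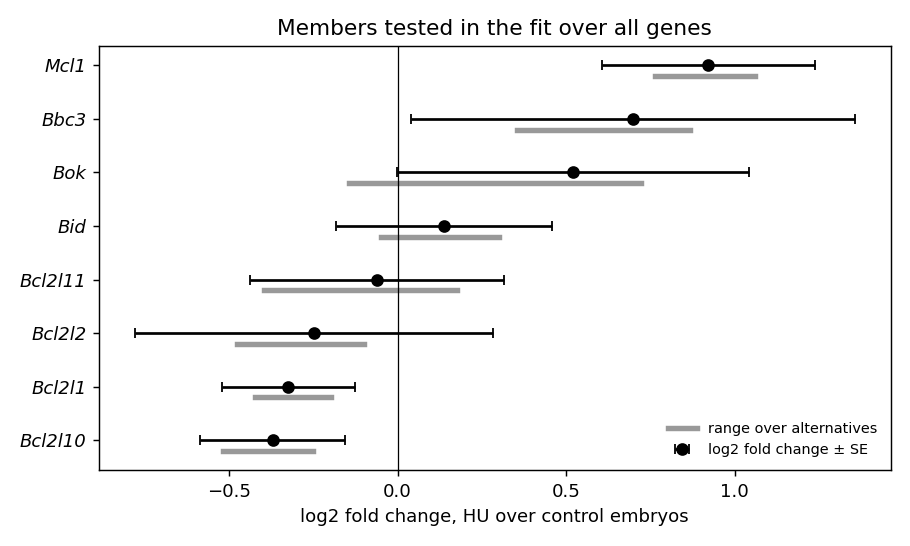
Log2 fold change, HU over control embryos, of the 8 members tested, with its SE (black), and the range of the value over the alternative settings (grey). Mcl1 lies at 0.92 ± 0.32, Bcl2l10 at -0.37 ± 0.22, and the grey ranges of Bok, Bid and Bcl2l11 cross 0.

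Relations between the 8 tested members were examined across the 17 embryos on log2(CPM + 1), 28 pairs in all. Bcl2l1 and Bcl2l10 were the pair that passed adjustment over the 28. Pearson's r was 0.823 (permutation p = 8e-05, adjusted p = 0.00224) and Spearman's rho 0.799 (permutation p = 0.00021, adjusted p = 0.00588). Without the 2 embryos farthest from the median of Bcl2l1, r was 0.712, and within groups it was 0.782 in HU embryos and 0.855 in control embryos. Members measured in 1 library share its scaling. With counts taken per ERCC spike-in count in place of TMM-scaled CPM, r was 0.830, but both genes share that divisor too, so it cannot remove this limit. Genes outside the family correlated more strongly with Bcl2l10 by Spearman's rho than Bcl2l1 did, as given below. The next pair by r, Bok and Bcl2l11, had r = 0.527 (permutation p = 0.0292, adjusted p = 0.329), which was 0.222 without the 2 embryos farthest from the median of Bok, 0.873 in HU embryos and -0.043 in control embryos. For Mcl1, r was 0.133 with Bcl2l1 (permutation p = 0.610) and -0.168 with Bcl2l10 (permutation p = 0.519).

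**Figure D4:**
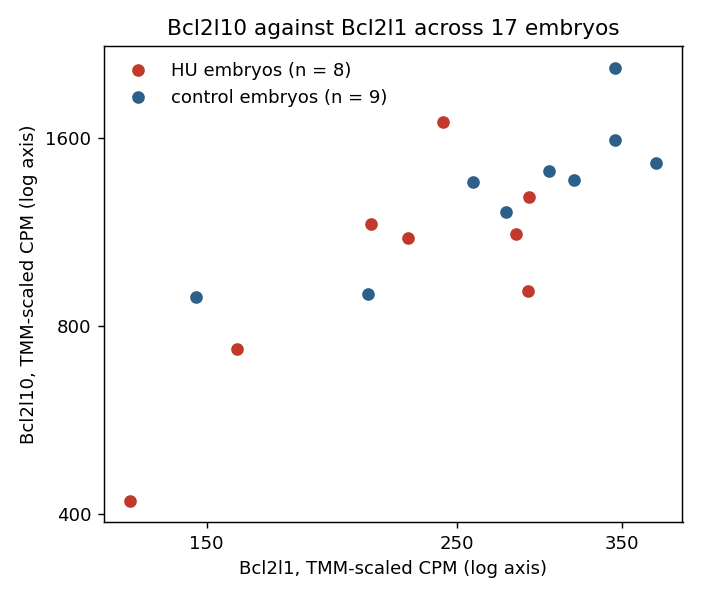
TMM-scaled CPM of Bcl2l10 (vertical) against Bcl2l1 (horizontal), both on log axes, for HU embryos (n = 8) and control embryos (n = 9); a point is 1 embryo. Embryos low in one gene tend to be low in the other in both groups (r = 0.782 in HU embryos and 0.855 in control embryos).

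The genes whose pattern over the 17 embryos was most like that of the leading members were read by Spearman correlation, as a description. For Bcl2l10 they were Obox5, an oocyte-expressed homeobox gene (0.914), Dusp14, a phosphatase gene (0.909), H1f0, a linker histone gene (0.890), Polr2c, a subunit of RNA polymerase (0.885), and Ccndbp1, which encodes a cyclin-binding protein (0.882). Obox5 had 0 counts in the 12 cells, like most of Bcl2l10, while H1f0 had 2458. For Bcl2l1 they were the mitochondrially encoded mt-Nd1 (0.799) and mt-Co1 (0.782), Bcl2l10 itself (0.799), Obox5 (0.792) and Dcaf7, a substrate adaptor gene of ubiquitin ligases (0.787). All 17 points share library scaling.

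Other genes of the pathway were read from 3 lists in the same comparison, and 0 of them passed the adjusted threshold. Over all 11476 genes tested, 6156 log2 fold changes were above 0 and 5320 below, with a median of 0.038, and 5.85% had an unadjusted p under 0.05. Of 16 further family genes, 7 were tested, with 5 log2 fold changes above 0 and 2 below, a median of 0.057, and 1 gene at an unadjusted p under 0.05. That gene was Bnip3, a mitophagy receptor, at 100 ± 18.2 CPM in HU embryos and 67.8 ± 36.1 CPM in control embryos (log2 fold change 0.57 ± 0.27, SE; edgeR unadjusted p = 0.0441, adjusted p = 0.829), with all 8 HU embryos above the control median. Its relative Bnip3l had 95.7 ± 26.6 CPM in HU embryos and 91.7 ± 30.1 CPM in control embryos. Bcl2l13, another mitophagy receptor, had 107 ± 28.1 CPM in HU embryos and 118 ± 24.95 CPM in control embryos, and Bcl2l14 had 21.5 ± 12.6 CPM in HU embryos and 15.2 ± 12.8 CPM in control embryos. Bax, the partner effector of Bak1, had a mean of 15.3 CPM in HU embryos and 14.9 CPM in control embryos (log2 fold change 0.041 ± 0.39, SE).

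Genes that act after the members, from mitochondrial release to the caspases, had 15 of 18 tested, with 10 log2 fold changes above 0 and 5 below and a median of 0.13. At an unadjusted p under 0.05 there was 1 of them, against 5.85% of all genes tested. Htra2, a mitochondrial protease that antagonises caspase inhibitors once released, had 16.8 ± 8.03 CPM in HU embryos and 29 ± 9.63 CPM in control embryos (log2 fold change -0.79 ± 0.34, SE; edgeR unadjusted p = 0.0319, adjusted p = 0.829). None of the 8 HU embryos exceeded the median of the controls. Apaf1, the scaffold of the apoptosome, had 58.2 ± 22.1 CPM in HU embryos and 38.4 ± 14.8 CPM in control embryos (0.60 ± 0.30, SE; edgeR unadjusted p = 0.0539). Among the 3 most abundant genes of the list, the channel gene Vdac1 had 307 ± 69.5 CPM in HU embryos and 292 ± 46.4 CPM in control embryos. The log2 fold changes of the fission gene Dnm1l and of Vdac2 were -0.088 and 0.14.

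Of 16 regulators of the members, 15 were tested, 8 with a log2 fold change above 0 and 7 below and a median of 0.049. Over all genes tested, 6156 were above 0 and 5320 below. At an unadjusted p under 0.05 there were 2 regulators, against 5.85% of all genes tested. E2f1, a transcription factor of the G1 to S transition, had 104 ± 18.0 CPM in HU embryos and 66.4 ± 18.0 CPM in control embryos (log2 fold change 0.65 ± 0.18, SE; edgeR unadjusted p = 0.00183, adjusted p = 0.829). Its HU values ran from 79.6 to 131 CPM and its control values from 43.8 to 107 CPM, all 8 HU embryos standing above the control median of 62.1 CPM. Foxo1, a transcription factor restrained by growth signals, had 93.9 ± 24.95 CPM in HU embryos and 67.6 ± 12.1 CPM in control embryos (0.47 ± 0.18, SE; edgeR unadjusted p = 0.0168, adjusted p = 0.829). The abundant regulators were Atf4, a transcription factor of the stress response, with 437 ± 280 CPM in HU embryos and 305 ± 137 CPM in control embryos, the ubiquitin ligase gene March5, with 377 ± 103 CPM in HU embryos and 413 ± 87.2 CPM in control embryos, and the deubiquitinase gene Usp9x, with 357 ± 101 CPM in HU embryos and 421 ± 108 CPM in control embryos. Trp53 had a mean of 43.8 CPM in HU embryos and 41.2 CPM in control embryos.

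All 10 members had a count in the donor cell type, in a different order by FPKM than in the embryos. Counts of the 12 cells were summed and set against the mean CPM of control embryos without a test, since the cells are 1 sample. Intervals on the sums cover the counting of reads only, and not the spread between cells. Of the 10 members, 4 were at least 4-fold lower in the cells (1 CPM added to both sides), a size reached by 25.2% of 19253 genes, and 0 were at least 4-fold higher, against 6.12% of genes. The median log2 ratio, cells over control embryos, was -0.046 over the members and -0.65 over all genes. With 0.1 CPM added in place of 1, again 4 members were at least 4-fold lower and 0 higher, beside 39.2% and 10.4% of genes. When counts were taken per ERCC spike-in count, all members were lower in the cells, with a median log2 ratio of -3.66 against -5.38 over all genes. That scale follows the RNA of a whole embryo against that of 1 cell, and the amount of spike-in added per library is not given in the sources used here.

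Bcl2l10 was almost undetected in the cells. It had 6 counts, all in cell 7 and none in the other 11, which is 0.249 CPM (exact Poisson 95% interval 0.0915 to 0.543), against 1368 ± 374.5 CPM in control embryos (SD, n = 9). The log2 ratio, with 1 CPM added to both sides as for all members, was -10.1. Without the added 1 CPM, control embryos were higher by 5484-fold, with a counting interval from 2519 to 14940 that rests on 6 counts from 1 cell. Bcl2l1 had a count in 8 of 12 cells, with a median of 14.9 CPM and a highest value of 53.3 CPM. Its sum was 17.4 CPM (interval 15.8 to 19.2) in the cells, against 285 ± 68.5 CPM in control embryos (log2 ratio -3.96). The highest cell stood below the lowest control embryo, which had 140 CPM.

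Of the BH3-only members, Bcl2l11 had 8.90 CPM (interval 7.74 to 10.2) in the summed cells, with a count in 5 of 12, against 86.3 ± 36.9 CPM in control embryos (log2 ratio -3.14). Bid had 9.06 CPM (7.90 to 10.4) in the cells, with a count in 6 of 12, against 43.1 ± 15.1 CPM in control embryos (-2.13). Bid was under the 4-fold size without cells 2, 5 and 10 (-1.98) and when Rn45s and mitochondrially encoded genes were left out of the sums (-1.28). Bbc3 had 2.54 CPM (1.94 to 3.26) in the cells and 3.42 ± 2.704 CPM in control embryos, with a log2 ratio of -0.32 that was 0.45 without Rn45s and mitochondrially encoded genes.

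Bok led the family in the cells per length, at 27.5 FPKM, against 8.89 ± 5.01 FPKM in control embryos. It had a count in 10 of 12 cells, with a median of 46.6 CPM and a highest value of 85.7 CPM, and its sum was 39.3 CPM (interval 36.9 to 41.9) in the cells, against 12.7 ± 7.18 CPM in control embryos (log2 ratio 1.56). No single cell held more than 18.3% of its counts. Mcl1 came second by the summed counts, at 8.75 FPKM in the cells, against 7.41 ± 3.15 FPKM in control embryos. Bok exceeded Mcl1 by FPKM in 8 of 12 cells, and Mcl1 exceeded Bcl2l1 in 5 of 12, with overlapping ranges. A count of it was found in 10 of 12 cells, with a sum of 30.5 CPM (28.3 to 32.8) in the cells and 25.8 ± 10.97 CPM in control embryos. Its log2 ratio of 0.23 was -0.020 without cell 8 and -0.26 against all 17 embryos. Next was Bcl2l1 at 5.45 FPKM, and Bcl2l10 was last at 0.203 FPKM.

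Bcl2 and Bcl2l2, both low in embryos, had log2 ratios of 1.34 and 1.10, but most of their counts came from 1 cell. Bcl2 had 5.07 CPM (4.21 to 6.06) in the summed cells and 1.41 ± 2.17 CPM in control embryos, with counts in 3 of 12 cells and 61.5% of them in cell 11. Without cell 11 its log2 ratio was 0.37. Bcl2l2 had 10.8 CPM (9.53 to 12.2) in the cells and 4.52 ± 2.50 CPM in control embryos, with counts in 6 of 12 cells and 53.8% of them in cell 11, and a log2 ratio of 0.20 without it. Bak1 had 4.53 CPM (3.72 to 5.47) in the cells and 3.12 ± 2.29 CPM in control embryos (log2 ratio 0.42, and -0.026 without cell 8).

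Without cells 2, 5 and 10, the log2 ratio was 0.42 for Mcl1, 1.28 for Bcl2l2, 1.51 for Bcl2, 1.52 for Bok, -3.54 for Bcl2l11, -3.93 for Bcl2l1 and -10.05 for Bcl2l10, each in the direction of the sum over all 12 cells.

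Libraries differed in depth, so each was also thinned to 317195 gene counts, the size of the smallest. A count of Bok then remained in 10 of 12 cells and of Mcl1 in 10 of 12, with both detected in all 8 HU and all 9 control embryos. Bak1 was found in 7 of 12 cells, 5 of 8 HU embryos and 3 of 9 control embryos, and Bcl2l2 in 3 of 12 cells, 5 of 8 HU embryos and 6 of 9 control embryos. Bcl2l1 was found in 8 of 12 cells, Bcl2l11 in 5 and Bid in 4, and all 3 in every embryo.

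Rn45s took 49.3% to 86.6% of gene counts in the cells and 16.2% to 32.5% in control embryos, which lowers the CPM of other genes more in the cells. With Rn45s and mitochondrially encoded genes left out, 3 members (Bok, Bcl2 and Bcl2l2) reached a 4-fold higher value in the cells, against 12.9% of all genes, and 3 (Bcl2l1, Bcl2l10 and Bcl2l11) at least 4-fold lower, against 20.6% of all genes.

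**Figure D5:**
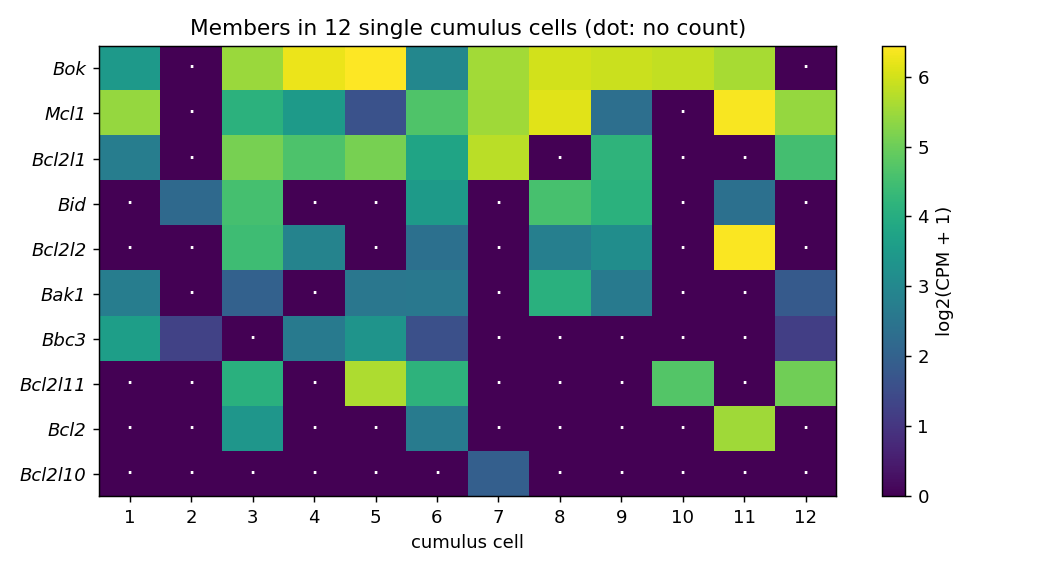
Level of the 10 members in each of the 12 cumulus cells as log2(CPM + 1) in colour, ordered by summed FPKM; a dot marks no count. Bok and Mcl1 have a count in 10 of 12 cells and Bcl2l10 in cell 7 alone, and cells 2 and 10 hold a count of 2 members each.

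Among the further family genes with a count in any of these libraries, 14 in number, 1 reached a 4-fold higher value in the cells and 3 a 4-fold lower one, against 6.12% and 25.2% of all genes. Without Rn45s and mitochondrially encoded genes these counts were 2 and 3. Bad, a BH3-only gene controlled by phosphorylation, had 24.2 CPM in the cells and 2.76 CPM in control embryos (log2 ratio 2.74). Bik, another BH3-only gene, had 0.208 CPM in the cells and 27.8 CPM in control embryos (-4.58). Bcl2l14 and Pmaip1 had 0 counts in the cells, against means of 15.3 and 6.65 CPM in control embryos. Pmaip1 had a count in 6 of the 17 embryos and was below the filter. Of the regulators, 6 of 16 were at least 4-fold lower in the cells and 0 at least 4-fold higher, against 25.2% and 6.12% of all genes. Foxo3 was the lowest (1.79 CPM in the cells and 83.2 CPM in control embryos). Without Rn45s and mitochondrially encoded genes, 5 regulators were 4-fold lower and 2 were 4-fold higher, against 20.6% and 12.9% of all genes.

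The members lie on 8 chromosomes (GENCODE M21 on GRCm38, matched by symbol). Mcl1 is at chr3:95658788-95663176 on the plus strand, Bcl2l10 at chr9:75347758-75351632 on the plus strand and Bcl2l1 at chr2:152780668-152831728 on the minus strand, and no annotated gene overlaps them. Bok at chr1:93685660-93695764 and Bcl2l11 at chr2:128126038-128162547, both on the plus strand, and Bbc3 at chr7:16308393-16318205 on the plus strand are likewise free of overlaps. Bak1 (chr17:27019810-27029009, minus strand) overlaps Ggnbp1 on the opposite strand, Bcl2 (chr1:106538178-106714274, minus strand) overlaps D630008O14Rik on the opposite strand and Mir3473f and Gm37053 on its own strand. Bid (chr6:120891930-120916853, minus strand) overlaps the pseudogene Gm17812 on the opposite strand and Gm44260 on its own strand, beside Bcl2l13, and Bcl2l2 (chr14:54883377-54888234, plus strand) overlaps Gm20521.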

How the data were processed

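Smart-seq2 libraries of 17 single embryos and 12 single cells were read from 2 deposited tables. The authors deposited raw counts per gene, whole numbers that differ in total between libraries, and FPKM values. The submitters' processing notes name the build mm10 and the tools STAR 2.7.3a, FastQC and R 4.0.2. Which counter, gene annotation and strand option made the counts is not given in the sources used here. Of 18588 genes checked, 18588 had an FPKM equal to the count divided by the library sum without ERCC rows and by 1 length per gene (tolerance 0.001). The 92 ERCC rows were left out of library sums and tests.

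HU and control embryos were compared with edgeR 4.0.16 (quasi-likelihood F test, TMM, filterByExpr, Benjamini-Hochberg over all genes tested, R 4.3.3); every adjusted p given is from this test unless said otherwise. DESeq2 1.42.0, limma 3.58.1, other scalings and filters, a replicate block and leaving out libraries were the alternatives. The edgeR procedure was tested on simulated counts. Standard errors come from the F statistic. The 95% intervals on log2 fold changes were built from them with the normal distribution in place of that of the F test, so they can be too narrow. Cumulus cells were summed, with exact Poisson 95% intervals and 1 CPM added to ratios. The Poisson intervals treat each read as an independent count and leave out the spread between cells. Reads carry no molecular identifiers, so copies of 1 molecule are not told apart and the Poisson intervals can be too narrow.

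The members and lists were chosen with earlier results of these data known. Named were all members; of each pathway list the 3 most abundant genes and the 2 with the smallest p; and the 5 genes most like each of the 2 leading members, without predicted genes. Bax, Trp53 and the genes named from the lists in the cells were named after their values were seen. Leaving out cells 2, 5 and 10 was chosen after seeing the data. Sequences come from RefSeq.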

Additional observations from a re-analysis of the deposited data

Results flagged for a closer look

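Bok in HU embryo replicate 2 stood at 64.8 TMM-scaled CPM, and the next HU embryo, replicate 6, at 27.2. This gap was 0.599 of the whole range of the 8 HU embryos, above Dixon's 95% critical value for 8 samples. Each of the 10 members was examined in both groups of embryos, 20 groups of values in all, and this was the 1 that stood out, where chance flags about 1 in 20. The embryo had 214 counts of Bok on 3235051 gene counts, a library of usual size, and held the highest HU values of Mcl1 (85.1 CPM), Bcl2l11 (206 CPM) and Bid (87.8 CPM) too.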

How the results depend on the processing

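The count of genes called in HU against control embryos was 0 in edgeR and 3 by DESeq2 (no member among them), and 0 to 1 with 1 embryo left out. The count of members at an unadjusted p under 0.05, which was 1 (Mcl1), was 0 with all 3 groups in the fit and 1 to 2 with 1 embryo left out. Mcl1, Bcl2l1, Bcl2l10, Bcl2l2 and Bbc3 kept the direction of their log2 fold change under every alternative fitted. That of Bcl2l11 was 0.18 under ERCC scaling, which moved the median of all genes to 0.19, 0.081 with replicates 1 to 8 and no block, and -0.40 to 0.081 with 1 embryo left out. Leaving out 1 embryo gave -0.14 to 0.68 for Bok and -0.050 to 0.24 for Bid. The labels do not say whether replicate numbers pair the embryos. Same-numbered embryos correlated in their deviations between -0.102 and 0.188, which cannot show whether they shared a day or a female. With the replicate number as a block 0 genes were called, Mcl1 stood at 1.04 and remained the 1 member at an unadjusted p under 0.05, and of all genes 274 were higher and 262 lower at that p. By the median of single cells, the log2 ratio of cumulus cells over control embryos was -1.27 for Bcl2, -0.83 for Bcl2l2, -0.33 for Mcl1 and -0.12 for Bak1. Per ERCC count it was -1.88 for Bcl2, -2.29 for Bcl2l2, -3.33 for Mcl1, -3.09 for Bak1 and -1.94 for Bok, and 8 members were at least 4-fold lower, as were 84.9% of all genes on that scale. Without Rn45s and mitochondrially encoded genes it was 0.45 for Bbc3, and 3 members were at least 4-fold higher. Against all 17 embryos it was -0.26 for Mcl1. Leaving out 1 cell gave -0.020 to 0.37 for Mcl1, -0.026 to 0.53 for Bak1, and 3 to 4 members at least 4-fold lower. The causes were not tested. Bcl2 and Bak1, at no more than 16 and 18 counts per embryo, were below the filter. Bcl2l2 and Bbc3 carried standard errors of 0.53 and 0.66, and how much of these is depth was not tested.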
